A study of Mus musculus with 16 samples.

Results

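Notch signalling was followed through 10 genes of the pathway in atria and ventricles of fetal mouse hearts at E15.5. They are the receptors Notch1 and Notch2, the ligands Dll1, Dll4, Jag1 and Jag2, and the target genes Hey1, Hey2, Heyl and Hes1. The genes were taken by name from the 16118 genes of the deposited table, and all 10 passed the filter on low values that left 13950 genes for testing. There were 8 embryos, and each gave 1 ventricular and 1 atrial RNA-seq library. The double knockout (dKO) group held 4 Meis1flox/flox and Meis2flox/flox embryos with the transgene aMHC tg/wt, in which a Cre recombinase transgene under the alpha-myosin heavy chain promoter, a promoter of heart muscle cells, acts on the floxed alleles of 2 homeobox transcription factor genes, Meis1 and Meis2. The series design mentions both constitutive and inducible deletion without assigning either to these embryos. The control group held 4 embryos that were aMHC +/+, which carry the same floxed alleles of both genes and no Cre. The presence of Cre therefore goes with the deletion in every comparison, and heart cells other than cardiomyocytes are not targeted by this promoter. The series design sets dKO against control tissue in each chamber.

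Notch receptors are cut when a ligand on a neighbouring cell binds them, and the released part enters the nucleus, where it joins the DNA-binding protein RBPJ and turns on target genes. Delta-like (Dll) and Jagged (Jag) proteins are the ligands, and the Hey and Hes proteins made in response are repressors of the basic helix-loop-helix family. In the developing heart, Notch1 and Dll4 are known from endothelium and endocardium, and Jag1 also from myocardium and vessel walls. Hey1 is known as an atrial and Hey2 as a ventricular gene of the myocardium, and both keep valve-forming genes such as Bmp2 and Tbx2 out of the chambers.

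Promoter sequences were searched for short motifs, and a match is given as a description of the letters, not as a bound site. RefSeq promoters (mouse build GRCm38.p6, 250 bases before to 50 bases after a start) were matched for 7 of the 10 genes, 8 windows in all because Dll1 had 2 starts, and none was matched for Hey1, Heyl and Hes1. GTGGGAA, a core sequence bound by RBPJ, and TGACAG, a core sequence bound by MEIS proteins, were searched on both strands, and they do not overlap each other in these windows. GTGGGAA is held by 6.39% and TGACAG by 19.2% of 32817 promoter windows of the same length. The 4 windows with a match are shown, 5′ to 3′ on the gene's strand, with matches in capitals. They were picked for the match and not for expression. Hey2 had the largest chamber difference of the 10 genes, Dll1 fell in dKO atria, and Dll4 was the ligand that was higher in ventricles. Jag1, the ligand with the largest chamber difference, had no match and is not shown.
Hey2, chr10:30842734-30843033, minus strand: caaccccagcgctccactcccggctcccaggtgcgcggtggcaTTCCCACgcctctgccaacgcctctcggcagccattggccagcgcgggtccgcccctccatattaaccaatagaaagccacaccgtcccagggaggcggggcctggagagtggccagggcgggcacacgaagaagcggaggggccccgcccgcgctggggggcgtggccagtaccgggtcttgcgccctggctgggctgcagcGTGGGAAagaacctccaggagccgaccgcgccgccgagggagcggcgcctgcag
Dll1, first start, chr17:15376883-15377182, minus strand: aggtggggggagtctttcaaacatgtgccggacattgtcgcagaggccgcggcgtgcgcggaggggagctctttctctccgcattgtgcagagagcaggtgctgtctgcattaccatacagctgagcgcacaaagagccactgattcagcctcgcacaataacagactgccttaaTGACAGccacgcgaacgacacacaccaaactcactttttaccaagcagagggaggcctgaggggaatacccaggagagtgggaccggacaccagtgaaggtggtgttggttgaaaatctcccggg
Dll1, the other start, chr17:15375774-15376073, minus strand: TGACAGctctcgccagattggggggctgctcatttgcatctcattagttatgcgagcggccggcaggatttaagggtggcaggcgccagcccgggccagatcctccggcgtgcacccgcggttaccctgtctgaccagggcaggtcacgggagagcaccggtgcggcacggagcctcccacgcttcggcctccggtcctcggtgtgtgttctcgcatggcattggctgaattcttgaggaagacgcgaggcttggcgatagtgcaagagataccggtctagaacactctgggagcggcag
Dll4, chr2:119325534-119325833, plus strand: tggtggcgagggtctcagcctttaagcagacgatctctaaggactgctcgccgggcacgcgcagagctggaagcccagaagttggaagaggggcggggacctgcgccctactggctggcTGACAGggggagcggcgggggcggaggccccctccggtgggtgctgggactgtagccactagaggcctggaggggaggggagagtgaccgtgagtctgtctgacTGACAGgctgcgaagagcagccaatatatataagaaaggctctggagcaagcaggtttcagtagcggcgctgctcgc
The Hey2 window held GTGGGAA at -4 from the start and its reverse complement, TTCCCAC, at -207. The Dll1 windows held TGACAG at -75 and at -250, and the Dll4 window held it at -131 and -27. Neither motif was found in the windows of Notch1, Notch2, Jag1 and Jag2. A match describes letters in the window and no binding was measured here.

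Libraries held 7.88 to 23.0 megareads, and all dKO ventricles (7.88 to 14.3 megareads) were read less deeply than all control ventricles (15.6 to 23.0 megareads). Each of the 10 genes had 56 to 4159 reads in each library, against a detection floor of 3 reads, which is 0.110 to 0.312 CPM, the deposited counts scaled to library size. Sample titles open with 1 of 3 numbers, shared by 2 dKO and 2 control embryos, by 1 dKO and 2 control embryos, and held by 1 dKO embryo alone, and what the number stands for is not stated. Meis1 averaged 26.1 CPM in dKO atria and 40.4 CPM in control atria (log2 difference -0.62, SE 0.09, adjusted p = 0.00135) but 40.9 and 41.5 CPM in dKO and control ventricles. Meis2 averaged 23.4 CPM in dKO ventricles and 39.2 CPM in control ventricles (log2 difference -0.73, SE 0.09, adjusted p = 0.00110) but 26.5 and 25.4 CPM in dKO and control atria. The labels do not say which exons are removed, and these values count reads over whole genes, so a level that is not lower does not show that a gene was left intact. Library dKO atrium 4 stood apart from the other dKO atria in several values given below.

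The dKO genotype went with lower Hey1 and Dll1 in atria, and no other call among the 10 genes in either chamber. Calls rest on limma's moderated test on log2(CPM + 1), with a Benjamini-Hochberg adjusted p under 0.05 over all 13950 genes and no minimum fold. In dKO atria 2 of the 10 genes were called, both lower, where 7.47% of all genes tested were called either way and 3.43% were called lower. In dKO ventricles 0 of the 10 were called, against 2% of all genes tested. There, 2 of the 10, Hey2 and Jag2, had an unadjusted p under 0.05, as did 1780 of the 13950 genes. DESeq2 called 1 of the 10 and 469 of all genes, and edgeR called 0 of the 10 and 259 of all genes. The median log2 difference of the 10 genes was -0.05 in atria, where all genes had a median near 0 (-0.0046), and -0.11 in ventricles, where all genes had -0.018. The dKO effect in ventricles minus that in atria was called for 0 of the 10 genes, against 2.64% of all genes tested. For Hey1 and Hey2 its unadjusted p was 0.00498 and 0.0436, where 1871 of all genes had one under 0.05, and DESeq2 and edgeR called 0 of the 10. Without overlap between groups, 3 of the 10 genes (Hey1, Dll1 and Jag1) were lower in all dKO atria than in all control atria, against 6.82% of all genes, and 2 (Hey2 and Jag2) were lower in all dKO ventricles than in all control ventricles, against 4.78% of all genes. In bulk tissue, fewer cells of a type and less RNA per cell cannot be told apart.

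**Figure D1:**
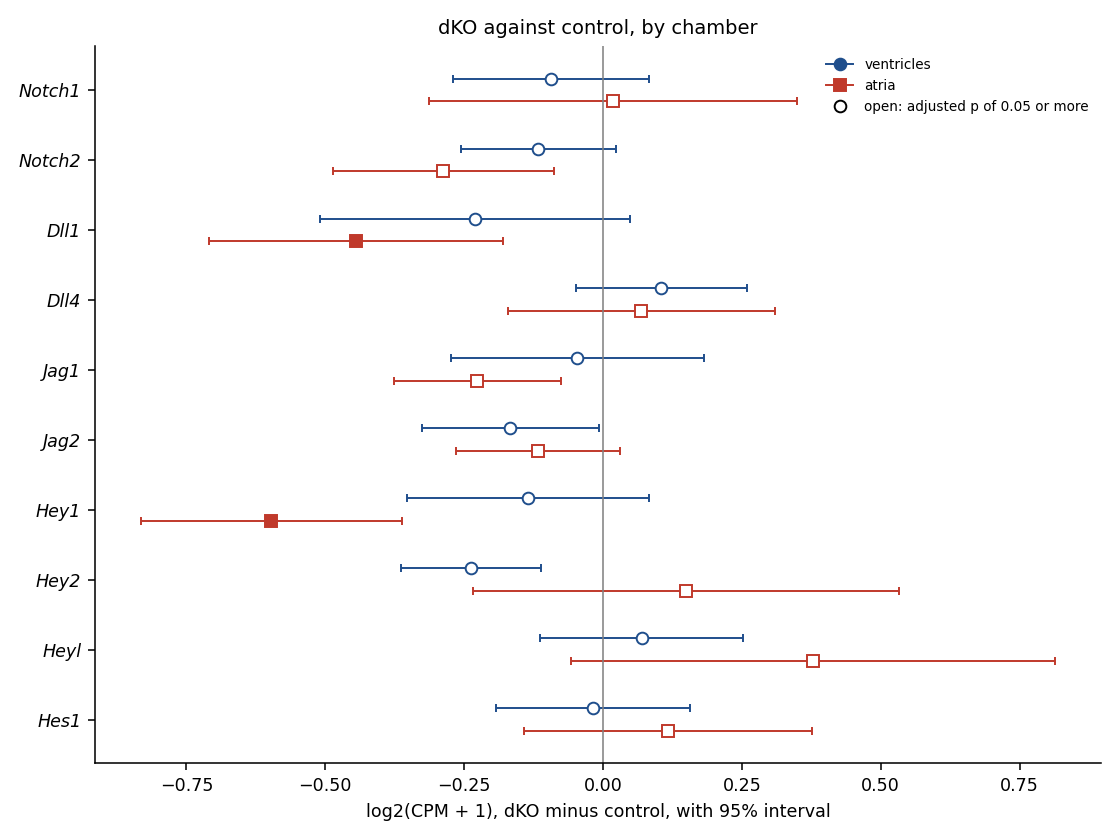
Difference between dKO and control on the log2(CPM + 1) scale (x axis) for each of the 10 genes (y axis), in ventricles (blue circles, upper of each pair) and atria (red squares, lower), with 95% intervals from limma over 4 embryos per group. Filled symbols mark an adjusted p under 0.05, which only Hey1 (-0.60) and Dll1 (-0.44) in atria have.

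Among the receptors, Notch1 did not separate the genotypes in either chamber. Its level was 78.0 ± 10.5 CPM in dKO ventricles and 82.8 ± 2.26 CPM in control ventricles, and 72.7 ± 16.8 CPM in dKO atria and 70.4 ± 6.07 CPM in control atria (SD, n = 4 each). The spread in dKO atria came from dKO atrium 4, at 48.6 CPM, where the other 3 dKO atria had 76.8 to 87.5 CPM. Without that library the log2 difference in atria was 0.20 (adjusted p = 0.140), and with it 0.02 (adjusted p = 0.967). Exons of Notch1 overlap those of 2 listed genes on the opposite strand, and the use of strand is not stated, so the values are uncertain to that extent.

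Notch2, the receptor of many mesenchymal and smooth muscle cells, averaged 52.9 ± 7.16 CPM in dKO atria and 64.5 ± 4.07 CPM in control atria (SD, n = 4 each). Of the dKO atria 3 lay below all control atria, and dKO atrium 2, at 62.0 CPM, lay within their range of 59.1 to 68.6 CPM. The log2 difference of -0.29 (SE 0.09) had an adjusted p of 0.0847. In ventricles Notch2 ranged from 52.2 to 60.1 CPM in dKO and from 57.1 to 67.8 CPM in control libraries (log2 difference -0.12, SE 0.06, adjusted p = 0.498). The order of the 4 group means, from control atria down to dKO atria, had overlapping neighbours at every step, and so did that of Notch1.

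Of the ligands, Dll1, the Delta-like ligand best known from segmentation and neural tissue, fell in dKO atria. It had 8.24, 8.525, 6.08 and 9.19 CPM in dKO atria, against 10.4, 11.01, 11.5 and 11.7 CPM in control atria. Every dKO atrium lay below every control atrium, and the dKO mean was 71.7% of the control mean (log2 difference -0.44, SE 0.12, adjusted p = 0.0482). The call lies close to the threshold. It was lost in 11 of 20 alternative settings, 7 of which leave out a library, with adjusted p from 0.0153 to 0.129 and log2 differences from -0.51 to -0.32. In ventricles Dll1 was lower still, at 4.76, 5.87, 4.72 and 4.11 CPM in dKO libraries, against 6.46, 5.45, 5.64 and 5.84 CPM in controls. The ventricular groups overlapped (log2 difference -0.23, SE 0.13, adjusted p = 0.504), and the dKO effect in ventricles minus that in atria was 0.22 (SE 0.16, adjusted p = 0.645).

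Jag1, the Jagged ligand required for outflow and vessel wall development, had 55.6, 55.1, 46.6 and 51.8 CPM in dKO atria, against 57.1, 60.9, 62.9 and 64.0 CPM in control atria. These groups did not overlap, and the log2 difference of -0.23 (SE 0.07) had an adjusted p of 0.0730. DESeq2 on the recovered reads called it (adjusted p = 0.0391), as did limma once the title number entered the fit (adjusted p = 0.0499). The latter fit compares genotypes only within title numbers that hold both, so the dKO embryo with a number of its own does not add to it. In ventricles Jag1 averaged 16.1 ± 2.54 CPM in dKO libraries and 16.5 ± 0.804 CPM in controls (SD, n = 4 each), with overlapping ranges.

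Jag2 ranged from 24.8 to 28.5 CPM in dKO ventricles and from 28.9 to 34.1 CPM in control ventricles. The ranges came close without overlapping (log2 difference -0.17, SE 0.07, adjusted p = 0.365). In atria Jag2 averaged 32.2 ± 2.16 CPM in dKO libraries and 34.95 ± 1.61 CPM in controls, with 3 of 4 dKO atria below all control atria (SD, n = 4 each). Dll4, the Delta-like ligand of arterial endothelium, averaged 29.6 ± 2.46 CPM in dKO ventricles and 27.4 ± 1.05 CPM in control ventricles (SD, n = 4 each), and ranged over 14.1 to 19.3 CPM in dKO atria and 13.3 to 16.8 CPM in control atria. Its genotypes overlapped in both chambers (adjusted p = 0.590 in ventricles and 0.789 in atria). Its exons overlap a listed gene on the opposite strand, with the same limit as for Notch1.

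Hey1, the Hey repressor known from atrial myocardium and endothelium, fell in dKO atria with the lowest adjusted p of the 10 genes. It had 19.4, 23.4, 19.6 and 24.6 CPM in dKO atria, against 34.3, 27.4, 35.7 and 36.1 CPM in control atria. All dKO atria lay below all control atria, and the dKO mean was 65.1% of the control mean (log2 difference -0.60, SE 0.11, 95% interval -0.83 to -0.36, adjusted p = 0.00605). Without dKO atrium 4 the log2 difference was -0.66 (adjusted p = 0.00348). The same direction appeared within both title numbers that hold both genotypes, with Hey1 means of 21.5 CPM over 2 dKO and 30.9 CPM over 2 control atria under one number, and 24.6 CPM in 1 dKO and 35.9 CPM over 2 control atria under the other. A test within the number with 2 embryos of each genotype gave a log2 difference of -0.50 and an adjusted p of 0.0550, the only one of 20 alternatives that lost the call.

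In ventricles Hey1 had 17.3, 17.6, 16.7 and 13.8 CPM in dKO libraries, against 20.5, 17.5, 16.02 and 18.2 CPM in control libraries. The ranges overlapped (log2 difference -0.14, SE 0.10, adjusted p = 0.638). The dKO effect in ventricles minus that in atria was 0.46 (SE 0.14, adjusted p = 0.111), which was not called, so a difference of the Hey1 change between chambers was not established. Leaving out control atrium 2 or dKO ventricle 4 brought it under the threshold.

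Hey2, the Hey repressor of compact ventricular myocardium, had 138, 127, 144 and 125 CPM in dKO ventricles, against 167, 147, 163 and 152 CPM in control ventricles. The groups did not overlap, the dKO mean was 84.8% of the control mean, and the log2 difference of -0.24 (SE 0.06, 95% interval -0.36 to -0.11) had an adjusted p of 0.0632. It was called by DESeq2 (adjusted p = 0.0182), with a robust variance prior in limma (adjusted p = 0.0306) and without dKO ventricle 3 (adjusted p = 0.0453), and edgeR gave an adjusted p of 0.105. Of 20 alternative settings only 3 called it. Over all of them adjusted p ran from 0.0182 to 0.537 and the log2 difference from -0.28 to -0.21. The 7 ventricular myocyte markers moved the same way as Hey2: all 7 had log2 differences below 0 (median -0.20), and 1 of them, Irx4, was called lower. Their summed level was 20044 to 21713 CPM in dKO and 22612 to 24790 CPM in control ventricles. The sum of 4 compact myocardium markers, taken without Hey2, went the other way, at 666 to 771 CPM in dKO and 581 to 658 CPM in control ventricles. Of the 5 compact markers with Hey2 among them, 2 had log2 differences above 0 and 3 below. Only Tbx20 was called, and it was higher. All 4 dKO ventricles were also read less deeply than the 4 control ventricles. The part of these markers and of depth in the Hey2 value was not tested. In atria Hey2 was low, at 8.24, 6.50, 5.48 and 10.6 CPM in dKO libraries, against 5.80, 7.52, 7.50 and 5.98 CPM in controls. The atrial groups overlapped (log2 difference 0.15, SE 0.17, adjusted p = 0.703), and without dKO atrium 4 the log2 difference was -4.08e-05.

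Heyl, the Hey family member known from vascular smooth muscle, had 13.4, 17.2, 16.3 and 29.7 CPM in dKO atria, against 12.0, 12.6, 16.2 and 15.0 CPM in control atria. The highest value was again that of dKO atrium 4. The log2 difference was 0.38 (SE 0.20, adjusted p = 0.326) with it and 0.16 (adjusted p = 0.514) without it, while a covariate for the title number gave 0.60 (adjusted p = 0.00597). The covariate fit leans on dKO atrium 4, the only dKO atrium of its title number, and the dKO embryo with a number of its own does not add to it. In ventricles Heyl averaged 25.3 ± 2.03 CPM in dKO libraries and 24.1 ± 2.22 CPM in controls, with overlapping ranges (SD, n = 4 each). Hes1, a target of Notch and of other signals, averaged 16.8 ± 0.873 CPM in dKO ventricles and 17.0 ± 1.07 CPM in control ventricles, and 19.5 ± 2.43 CPM in dKO atria and 17.9 ± 2.70 CPM in control atria. Its 4 group ranges overlapped between neighbours at every step, and dKO atrium 4, at 23.1 CPM, lay above the other 3 dKO atria (18.1 to 18.5 CPM).

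**Figure D2:**
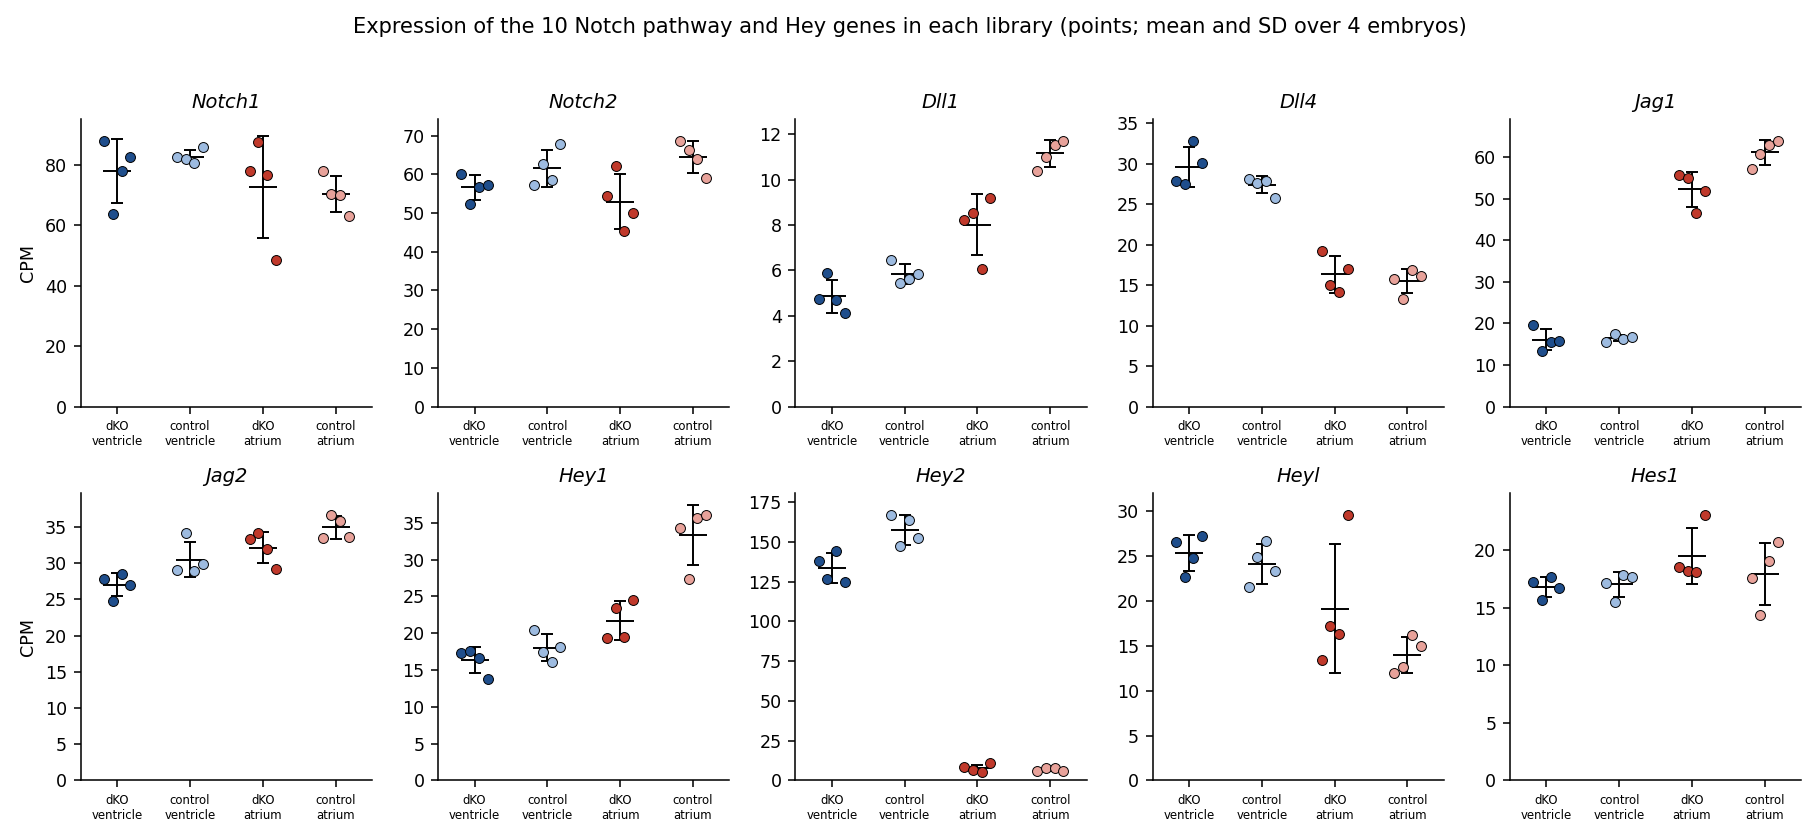
Level in CPM (y axis, from 0) of each of the 10 genes in every library, by group, with the mean and SD over 4 embryos as bars. Hey1, Dll1 and Jag1 are lower in all dKO atria than in all control atria, Hey2 and Jag2 are lower in all dKO ventricles than in all control ventricles, and 1 dKO atrium stands apart for Notch1 (48.6 CPM), Heyl (29.7 CPM) and Hes1 (23.1 CPM).

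More of the 10 genes were called between the chambers than between the genotypes, as was the case over all genes. Size did not follow in every gene. The atrial dKO difference of Notch2 (-0.29) was larger than its chamber differences (-0.07 in control and 0.10 in dKO embryos). That of Hey1 (-0.60) lay between its chamber differences in dKO (-0.39) and control embryos (-0.85). Between ventricles and atria of control embryos 7 of the 10 genes were called, 3 higher and 4 lower in ventricles, against 46.9% of all genes tested. In dKO embryos 7 of the 10 were called, against 49.1% of all genes tested, and they were the same 7 genes with the same directions. A chamber difference was thus common among all genes, and its size varied widely among the 10. Hey2, Dll4 and Heyl were higher in ventricles. Jag1, Dll1, Hey1 and Jag2 were lower there.

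Hey2 had the largest difference, with a mean of 134 ± 9.18 CPM in dKO ventricles and 7.70 ± 2.24 CPM in dKO atria, and of 158 ± 9.36 CPM in control ventricles and 6.70 ± 0.941 CPM in control atria (SD, n = 4 each). The log2 difference was 3.98 in dKO and 4.37 in control embryos (SE 0.13 each, adjusted p = 2.68e-14 and 7.11e-15). Ventricular myocyte markers also left a trace in atria, with a summed level of 659 to 1438 CPM in dKO and 698 to 1869 CPM in control atria, far below the sums in ventricles given above. Of those 7 markers Irx4, a ventricular transcription factor, averaged 0.251 CPM in dKO atria and 0.343 CPM in control atria. The part of ventricular tissue in the atrial Hey2 level was not tested.

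Jag1 showed the opposite pattern, with log2 differences of -1.65 in dKO and -1.83 in control embryos (SE 0.08 each, adjusted p = 1.28e-11 and 3.35e-12). Dll1 differed by -0.61 in dKO and -0.83 in control embryos (adjusted p = 0.000195 and 8.46e-06). Hey1 differed by -0.39 in dKO and -0.85 in control embryos (adjusted p = 0.00409 and 1.79e-06). The smaller Hey1 difference in dKO embryos and the fall of Hey1 in dKO atria rest on the same atrial libraries and are a single observation. Dll4 differed by 0.82 in dKO and 0.79 in control embryos (adjusted p = 4.20e-07 and 8.34e-07). Heyl differed by 0.44 in dKO and 0.75 in control embryos (adjusted p = 0.0220 and 0.000510), and Jag2 by -0.24 and -0.19 (adjusted p = 0.00465 and 0.0205). The Jag2 call in control embryos was lost when any of 5 single libraries was left out, and the Heyl call in dKO embryos when any of 3 was. Notch1, Notch2 and Hes1 were not called in either genotype, with log2 differences between -0.19 and 0.24.

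**Figure D3:**
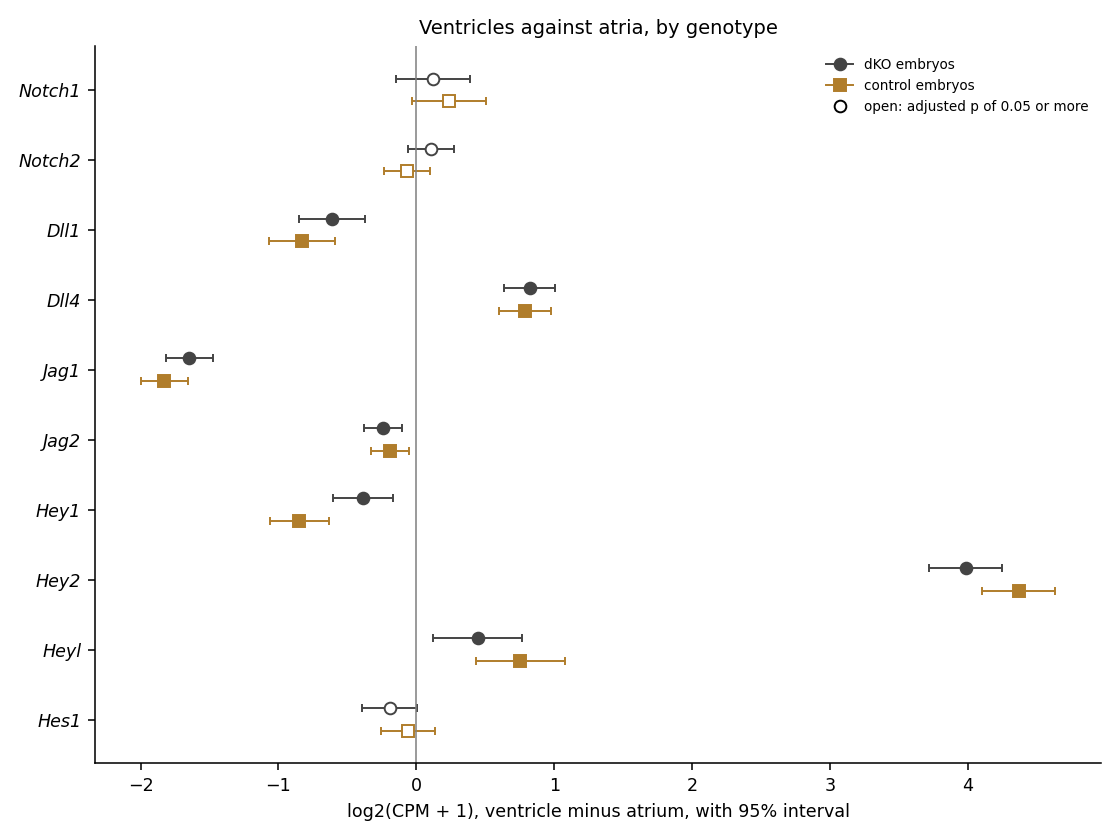
Difference between ventricles and atria on the log2(CPM + 1) scale (x axis) for each of the 10 genes (y axis), in dKO embryos (dark circles, upper) and control embryos (ochre squares, lower), with 95% intervals from limma with embryo as a block. Hey2 stands at 3.98 and 4.37 and Jag1 at -1.65 and -1.83 in dKO and control embryos, and open symbols mark the 3 genes with an adjusted p of 0.05 or more.

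Set against transcript length, the rank of the 10 genes depended on the chamber. Divided by the length of the longest coding transcript, Hey2 led in ventricles, at 52.4 ± 3.60 CPM per kilobase in dKO and 61.8 ± 3.67 in control libraries, followed by Hes1 at 11.4 ± 0.595 and 11.6 ± 0.726. In dKO atria Hes1 led at 13.3 ± 1.66 CPM per kilobase, ahead of Jag1 at 9.32 ± 0.743 and Hey1 at 8.96 ± 1.09, which lay within each other's spread. In control atria Hey1 came first at 13.8 ± 1.68, with Hes1 at 12.2 ± 1.84 and Jag1 at 10.9 ± 0.543 behind it, and Hey1 and Hes1 were within their spread. Dll1 was lowest in dKO ventricles (1.36), control ventricles (1.63) and dKO atria (2.24), and Hey2 was lowest in control atria (2.63). The Hey, Notch, Delta-like and Jagged relatives shared no stretch of 60 bases, the read length, between the longest coding transcripts of any pair compared, and the longest shared run of a pair was 25 bases for Notch1 with Notch2, 21 for Jag1 with Jag2, 19 for Dll1 with Dll4 and 17 for Hey1 with Hey2 or Heyl.

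The rest of the pathway was read from a list of 47 further genes, of which 40 were tested, 2 (Aph1c and Hes7) were listed under the filter of 1 CPM, and 5 are not analysed here. In dKO atria 1 of the 40 was called, against 7.47% of all genes tested. It was Neurl1b, which encodes an E3 ubiquitin ligase acting on Notch ligands. In dKO ventricles 0 of the 40 were called, against 2% of all genes tested. The median log2 difference of the 40 genes was 0.09 in atria and 0.0045 in ventricles, beside the medians over all genes given above. Neurl1b had 19.3, 17.1, 21.9 and 22.8 CPM in dKO atria, against 30.4, 28.2, 28.5 and 32.6 CPM in control atria. The groups lay well apart (log2 difference -0.55, SE 0.09, adjusted p = 0.00480). In ventricles Neurl1b averaged 55.4 CPM in dKO libraries and 56.4 CPM in controls, and the dKO effect in ventricles minus that in atria was 0.52 (SE 0.12, adjusted p = 0.0203). That call was lost without control atrium 4, control ventricle 1 or dKO ventricle 3 (adjusted p = 0.0587, 0.0551 and 0.0522). It was 1 gene of 40 with such a call, against 2.64% of all genes tested.

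**Figure D4:**
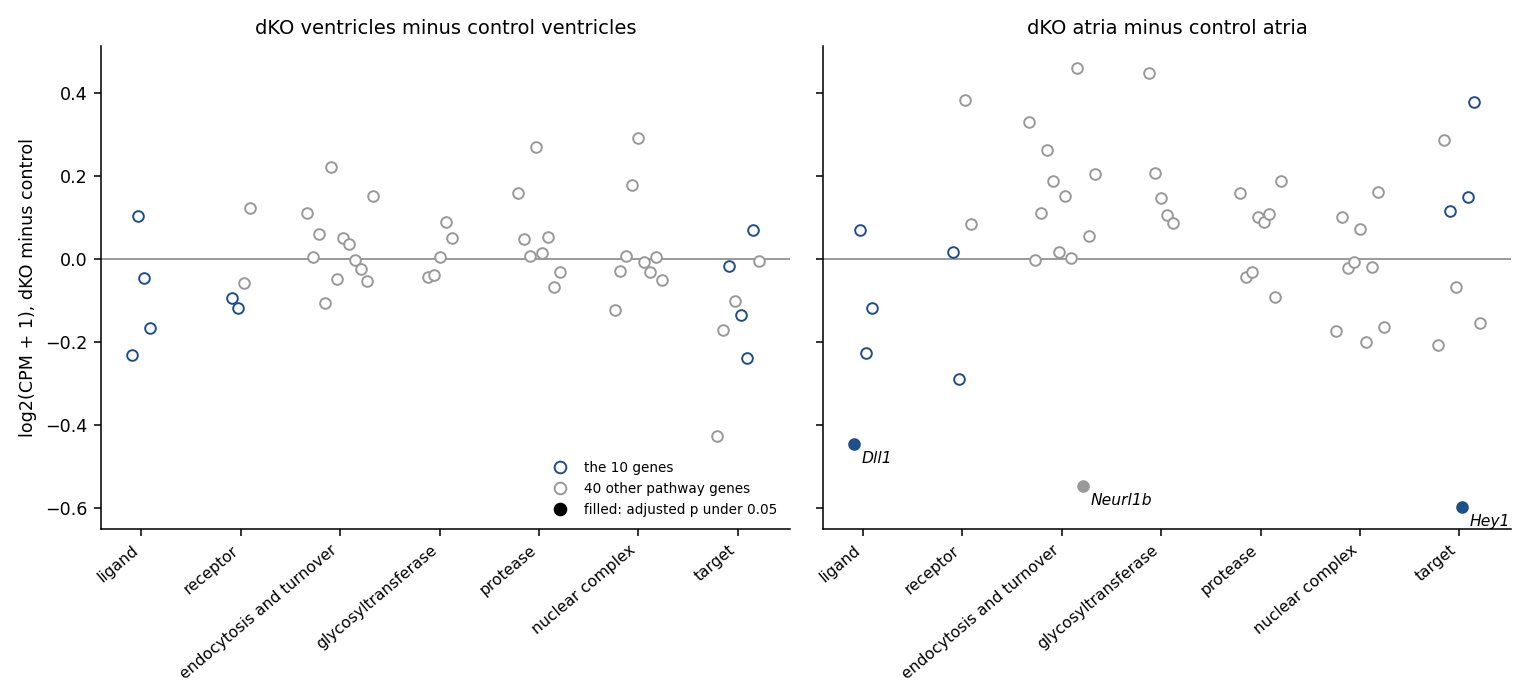
Difference between dKO and control on the log2(CPM + 1) scale (y axis) for the 10 genes (blue) and 40 other pathway genes (grey), grouped by role (x axis), in ventricles (left panel) and atria (right panel). Filled and named points have an adjusted p under 0.05: Dll1 (-0.44), Neurl1b (-0.55) and Hey1 (-0.60) in atria, and none in ventricles.

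Between chambers, 23 of the 40 genes were called in dKO embryos (9 higher and 14 lower in ventricles) and 20 in control embryos (9 higher and 11 lower), against 49.1% of all genes in dKO and 46.9% in control embryos, so the share of the list lay near that of all genes. Nrarp, a Notch target that feeds back on the receptor, averaged 52.5 CPM in dKO ventricles and 22.2 CPM in dKO atria, and 52.7 CPM in control ventricles and 24.9 CPM in control atria (log2 differences 1.20 and 1.05). Neurl1b differed by 1.41 in dKO and 0.89 in control embryos. Notch4, an endothelial receptor, differed by 0.72 and 0.69, and Mfng, a Fringe glycosyltransferase that tunes ligand choice, by 0.96 and 1.21. Lower in ventricles were Dtx3 (-0.58 in dKO and -0.53 in control embryos) and Fbxw7 (-0.49 and -0.52), a Deltex family gene and the gene of a ubiquitin ligase that marks the active receptor for decay. Also lower were Pofut1 (-0.52 and -0.37), which adds the fucose that receptors need, and Ncstn (-0.42 and -0.34), a subunit of the gamma-secretase that cuts them. Adjusted p for these 8 genes was at most 7.06e-05 in both genotypes. Exons of Nrarp and Ncstn overlap listed genes on the opposite strand.

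Cardiac genes linked to Notch and Hey in the developing heart were read from a list of 16, all tested. This list was chosen with earlier results of these data known, so its counts describe the list and do not show a surplus over all genes. In dKO atria 5 of the 16 were called, 4 higher and 1 lower, against 7.47% of all genes tested, with a median log2 difference of 0.31 over the list. In dKO ventricles 4 were called, all higher, against 2% of all genes tested, with a median of 0.08. Bmp2, a growth factor that patterns the valve region, had 27.9, 29.5, 26.4 and 23.8 CPM in dKO atria, against 15.4, 15.9, 16.8 and 15.0 CPM in control atria. Every dKO atrium lay above every control atrium (log2 difference 0.73, SE 0.08, adjusted p = 0.000255). In ventricles Bmp2 averaged 10.2 CPM in dKO libraries and 9.08 CPM in controls, with overlapping ranges, and was not called. Tbx2, a repressor of chamber genes, had 24.8, 16.3, 20.9 and 20.7 CPM in dKO ventricles, against 13.6, 11.1, 11.6 and 12.4 CPM in control ventricles, and 19.8, 38.0, 28.2 and 31.4 CPM in dKO atria, against 16.04, 13.6, 18.1 and 13.2 CPM in control atria. It rose without overlap in both chambers (log2 difference 0.70, SE 0.12, adjusted p = 0.00718 in ventricles, and 0.88, SE 0.17, adjusted p = 0.00916 in atria).

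Nppa, the gene of atrial natriuretic peptide, rose in ventricles (log2 difference 1.90, adjusted p = 3.36e-05) and in atria (0.63, adjusted p = 0.0184). The atrial Nppa call was lost in 7 of 20 alternative settings: without control atrium 2, 3 or 4 or dKO atrium 3 (adjusted p from 0.0543 to 0.0611), with quantile normalization (0.102, at a log2 difference of 0.41), with no filter (0.0672) and within the title number with 2 embryos of each genotype (0.0524). Gja5, a connexin of atria and conduction tissue, rose in ventricles (0.67, adjusted p = 0.000416), as did Tbx20, a chamber transcription factor (0.35, adjusted p = 0.0109). Efnb2, an arterial ephrin and Notch target, rose in atria (0.25, adjusted p = 0.0200), where Gja5 had an adjusted p of 0.0697. The Efnb2 call was lost in 5 of 20 settings: without control atrium 3 or 4 or dKO atrium 2 or 3 (adjusted p from 0.0522 to 0.0611) and within that title number (0.105). The gene called lower in dKO atria was Bmp10, a growth factor gene of heart muscle, with a mean of 128 CPM in dKO atria and 225 CPM in control atria, named here after its value was seen. Exons of Nppa and Gja5 overlap listed genes on the opposite strand.

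Because several of the 10 genes are expressed mainly outside cardiomyocytes, cell type markers were read in the same libraries. In ventricles the summed level of 10 endothelial markers was 982 to 1063 CPM in dKO libraries, against 1018 to 1063 CPM in controls. In atria it was 1065 to 1366 CPM in dKO libraries, against 1110 to 1125 CPM in controls, with dKO atrium 4 the lowest of all atria. Of the 10 markers 2 were called in dKO atria, 1 higher and 1 lower, and 0 in dKO ventricles. Over all genes tested, 7.47% were called in atria and 2% in ventricles, beside this count and those that follow. The 6 arterial and coronary endothelial markers summed to 229 to 300 CPM in dKO atria, all above the 204 to 221 CPM of control atria, with 3 of 6 called higher. Efnb2, 1 of these 3, is also in the cardiac list above. The 10 smooth muscle and pericyte markers summed to 1128 to 1548 CPM in dKO and 884 to 1011 CPM in control atria, with 4 called higher and 1 lower, and the 8 fibroblast markers to 6181 to 10307 CPM in dKO and 5339 to 7158 CPM in control atria, with 2 called higher. The 8 epicardial markers also summed higher in all dKO atria, at 468 to 545 CPM, against 374 to 440 CPM in control atria, with all 8 log2 differences above 0 and 2 called higher. Tcf21 is in both the fibroblast and the epicardial list and is 1 of the 2 called in each, so these counts are not separate. The 8 macrophage markers summed to 90.7 to 148 CPM in dKO and 90.6 to 106 CPM in control atria, with all 8 above 0 and 1 called higher. Of 8 atrial myocyte markers, 2 were called higher and 1 lower in dKO atria, with 4 above 0 and 4 below. None of the endothelial, smooth muscle, fibroblast, epicardial or macrophage markers averaged under 1 CPM in any group.

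**Figure D5:**
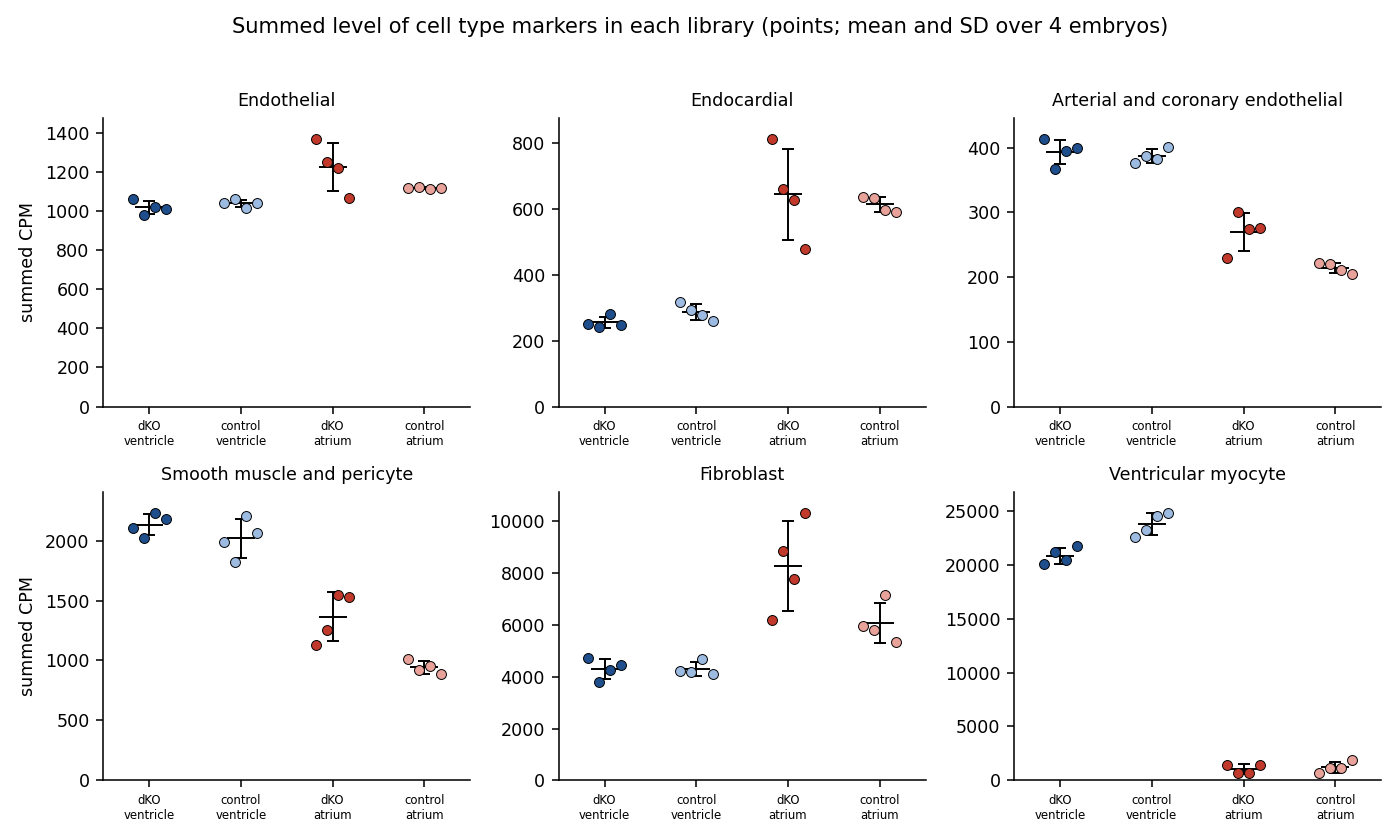
Summed CPM (y axis, from 0) of 6 marker lists in every library, by group, with the mean and SD over 4 embryos as bars. Arterial and coronary endothelial and smooth muscle sums lie higher in all dKO atria than in all control atria, and the endothelial and endocardial sums are lowest among atria in dKO atrium 4 (1065 and 477 CPM), which also has the highest fibroblast sum (10307 CPM).

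Levels were also set against endothelial markers, as a description. This scale takes 1 list mean off every gene of a library. It therefore shifts the differences of all genes between groups by the same amount and gives no separate support. Relative to the mean log2 level of the 10 endothelial markers in the same library, Hey1 stood at -1.91 ± 0.199 in dKO atria and -1.20 ± 0.168 in control atria (SD, n = 4 each), a difference of -0.71. Dll1 stood at -3.25 ± 0.239 in dKO atria and -2.69 ± 0.0547 in control atria, a difference of -0.56. Jag1 and Notch2 differed by -0.34 and -0.40 on this relative scale. With the arterial and coronary list in place of the endothelial list, which was higher in dKO atria, all relative differences were more negative, at -1.05 for Hey1 and -0.90 for Dll1, and those of Heyl, Hey2 and Hes1 lay below 0 with this list and above 0 with the endothelial list. In dKO atrium 4 the highest fibroblast sum and the lowest endothelial and endocardial sums of all atria stood beside the highest Heyl and Hes1 and the lowest Notch1, and their part in those values was not tested.

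Genes with a pattern most like that of a member were sought for Dll1, Jag1 and Hey2, the 3 whose group means spanned at least 1 on the log2 scale. Likeness was the root-mean-square difference of mean-centred log2(CPM + 1) over the 16 libraries, among 12669 genes with an ordinary symbol. For Dll1 the nearest gene was Hey1 (0.14), followed by Tigd2 (0.14). For Jag1 the nearest were Adamts7 (0.12) and Enpep (0.15). For Hey2 they were Irx2 (0.31) and Irx1 (0.35), Iroquois homeobox genes at 15.4 and 15.2 CPM in dKO ventricles and 23.7 and 18.9 CPM in control ventricles, and all under 1 CPM in both atrial groups. The chamber difference makes up most of each of these patterns.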

How the data were processed

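RNA was measured in 16 libraries from 8 embryos, 4 per genotype, so replicates are separate animals. Atria and ventricles were split after the outflow tract was cut off, and mRNA was sequenced from 1 end in 60-base reads, per the labels' protocols. The submitters' processing notes name cutadapt, RSEM 1.3.1 and GRCm38. The authors deposited count values scaled to library size (CPM). How they normalized, which genes they dropped, which annotation they took and whether strand was used is not given in the sources used here. All deposited CPM values turned into whole reads after an offset of 0.5 read was subtracted (100% within a tolerance of 0.001). These recovered reads gave the depths and fed the count tests.

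The test was limma 3.58.1 (R 4.3.3) with its mean-variance trend on log2(CPM + 1), two-sided, for genes averaging 1 CPM or more, with Benjamini-Hochberg adjustment. The pseudocount shrinks fold changes of low genes. dKO was set against control in each chamber alone. Contrasts between chambers used all 16 libraries with embryo as a block (consensus correlation 0.108), because both chambers came from the same embryo. The protocol speaks of 1 control and 1 dKO embryo per litter, but the sample titles do not show such pairs. Genotypes were therefore not paired. In simulated atria 78% of changes of 1 on the log2 scale and 44% of changes of 0.5 were recovered, with 3.94% of calls false. In simulated ventricles these values were 77%, 47% and 6.77%. On recovered reads edgeR 4.0.16 called 1031 genes in atria and 259 in ventricles, and DESeq2 1.42.0 called 1546 and 469. Alternatives were another pseudocount, filter, scaling, variance prior, test, block or title number, and leaving out each library.

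The 10 genes and all lists were chosen with earlier results of these data known. The text names all 10, Meis1 and Meis2, up to 6 genes of the wider list and, for dKO against control, up to 4 of the cardiac list by smallest adjusted p per comparison, and the 2 genes most like each member whose group means span at least 1. Lengths, coordinates and overlaps came from GENCODE on GRCm38, which held 16096 of 16118 IDs. The detection floor covers counting error only.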

Additional observations from a re-analysis of the deposited data

Results flagged for a closer look

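Hes1 in dKO atrium 4 had 23.1 CPM, far above the other 3 dKO atria at 18.1 to 18.5 CPM for a group of 4. Of 40 combinations of gene and group examined, 1 stood out in this way, and chance gives about 1 in 20. That library also had the highest fibroblast sum and the lowest endothelial sum among atria.

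Among the 10 genes, Meis1, Meis2 and the genes named by rule from the wider pathway and cardiac lists, the dKO effect differed between chambers for 5. The test was that of the difference itself (limma, ventricles minus atria), which called 368 of all 13950 genes. The rule names genes by smallest adjusted p, Neurl1b also in this contrast and Nppa and Tbx20 in dKO comparisons that enter it. The count of 5 can therefore not be set against the share of all genes. None of the 5 is a Notch or Hey gene of the 10. The difference was 0.60 for Meis1 (adjusted p = 0.00464), -0.79 for Meis2 (adjusted p = 0.000573), 0.52 for Neurl1b (adjusted p = 0.0203), 1.26 for Nppa (adjusted p = 0.000966) and 0.46 for Tbx20 (adjusted p = 0.00664). Neurl1b averaged 20.3 CPM in dKO atria and 29.9 CPM in control atria and did not separate the genotypes in ventricles. Tbx20 averaged 547 CPM in dKO ventricles and 430 CPM in control ventricles, and 392.2 CPM in dKO atria and 424 CPM in control atria.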

How the results depend on the processing

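Of the 10 genes, 2 were called in dKO atria in the fit reported, 4 by DESeq2, 1 by edgeR, 1 with no filter, 0 within the title number with 2 embryos of each genotype, and 1 to 2 when a library was left out. In dKO ventricles 0 were called, 1 (Hey2) by DESeq2 and with a robust prior, and 0 to 1 without a library. For the difference between chambers the count was 0, or 0 to 1 without a library. Over all 13950 genes in atria, 1042 were called in the fit reported, 1546 by DESeq2 and 1031 by edgeR. With no filter 946 of 16118 were called, within that title number 944, and without a library 695 to 1201. Over all genes in ventricles, 279 were called, 469 by DESeq2, 346 with a robust prior, 79 within that title number and 187 to 261 without a library. For the difference between chambers 368 of all genes were called, and 269 to 474 without a library. Without the embryo (replicate) block the difference between chambers was still called for 0 of the 10 genes, and the chamber comparisons for 7 each. Notch2 in atria was called by DESeq2 (adjusted p = 0.0454) and in a fit to all 16 libraries (adjusted p = 0.0347). With the arterial and coronary list, relative differences in atria were -0.44 for Notch1, -0.74 for Notch2, -0.90 for Dll1, -0.39 for Dll4, -0.68 for Jag1, -0.57 for Jag2, -1.05 for Hey1, -0.31 for Hey2, -0.079 for Heyl and -0.34 for Hes1, and those of Hey2 (0.034 with the endothelial list), Heyl (0.26) and Hes1 (0.00082) turned round, as did Hes1 in ventricles (0.010 and -0.036). Within the title number Tbx2 and Tbx20 lost their ventricular calls (adjusted p = 0.304 and 0.142). In the fits signs turned round for uncalled values near 0, given here as the range when a library was left out and the values of other settings. In atria these were Notch1 (-0.081 to 0.20, and -0.091 with the title covariate), Dll4 (-0.0083 to 0.13) and Hey2 (-4.08e-05 to 0.28, and -0.13 within that title number). In ventricles they were Jag1 (-0.14 to 0.031), Hes1 (-0.060 to 0.015, 0.0030 with DESeq2, 0.0018 with edgeR and 0.027 within the title number) and Meis1 (-0.082 to 0.027). For the dKO effect in ventricles minus that in atria they were Notch1 (-0.30 to 0.0029), Jag2 (-0.092 to 0.0017) and Dll4 (-0.034 to 0.12). Between ventricles and atria they were Hes1 in control embryos (-0.15 to 0.0079), Meis1 in control embryos (-0.012 to 0.099, -0.0013 with DESeq2 and -0.0046 with edgeR) and Notch1 in dKO embryos (-0.060 to 0.24). The causes were not tested.

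The number of embryos limits the precision, and an adjusted p over the threshold does not show that a gene is unchanged. No scaling tried moved the median of all genes by over 0.1 on the log2 scale.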
